A study of Aspergillus glaucus with 6 samples.

Results

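The genes described here are the 42 of 8441 gene IDs of the fungus Aspergillus glaucus CCHA whose transcripts stood highest in the culture without added salt. They were selected by their read counts in all 6 libraries of the study. A gene's rule value, as it is called here, is its CPM (counts scaled to 1000000 counts of the file) plus 1. It had to reach 11 in the library of 0 M NaCl at 84 h. It also had to be at least 3 times the rule value in each of the 5 other libraries. IDs in 11 stretches of the numbering were left out. These stretches hold 51 listed IDs, of which 7 would have passed. Since every library took part in the choice, the high level in 0 M NaCl is a description of the set and carries no test.

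RNA was sequenced from mycelium of strain CCHA. The labels name this strain for every group and no agent other than sodium chloride. Cultures of 84 h had NaCl at 0 M, 1 M, 3 M or 4 M, and cultures of 36 h had it at 1 M or 3 M. With a single library per group, differences could not be set against a spread between cultures, and no p-value is given. A salt-free culture at 36 h was not analysed here, so in the 2 comparisons of 0 M at 84 h with 36 h libraries, salt and culture time cannot be told apart.

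Depth was even, with totals between 16371771 and 18376857 counts. Libraries 3 M at 36 h and 4 M at 84 h stood apart from the rest, with 5710 and 5681 genes at 10 CPM or more against 6072 to 6116 in the other 4. Across 6745 genes their log2 levels correlated at Pearson r = 0.949, whereas r was 0.648 to 0.905 for the remaining pairs. In turn, 3 M at 84 h was closer to 1 M at 36 h (r = 0.897) than to 3 M at 36 h (r = 0.773). These correlations are across genes of the same libraries and are a description only. Whether the labels of the 3 M libraries are exchanged with others cannot be told apart from an effect of salt and time, so the counts of genes are also given without these libraries.

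Fungi of the Aspergillus glaucus group grow on dry, sugary or salted substrates where few other moulds do. Salt outside the hypha draws water from it. In aspergilli and yeasts the high-osmolarity glycerol (HOG) kinase pathway answers this stress, and cells build up glycerol and other small solutes. Which functions the member genes serve is not known here, because the files give IDs without gene names and 0 of the IDs matched the 11428 RefSeq genes of another strain of the species. Members are therefore described by ID, and no role is given to any of them. Gene lengths are not in the files either, so levels are compared between libraries and not between genes.

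The member genes together took 1.44% of all counts in the 0 M library (exact Clopper-Pearson 95% interval 1.437% to 1.448%, counting error only). Among 84 h libraries their share was 0.128% in 1 M, 0.136% in 3 M and 0.0496% in 4 M. At 36 h it was 0.229% in 1 M and 0.0648% in 3 M. Both libraries that stood apart were thus the lowest for the set as a whole. In 0 M, 3 genes held 60.5% of the members' counts, so these shares describe few genes. The median member shows the same order at the lower end. In CPM scaled with TMM factors, the unit of all levels below, the median member stood at 61.9 in 0 M, 10.2 in 1 M, 4.66 in 3 M and 2.64 in 4 M among the 84 h libraries. At 36 h it stood at 9.70 in 1 M and 3.49 in 3 M. In the 4 M library 11 of the 42 members were under 1 CPM, against 3 in each 1 M library and 6 in each 3 M library.

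**Figure D1:**
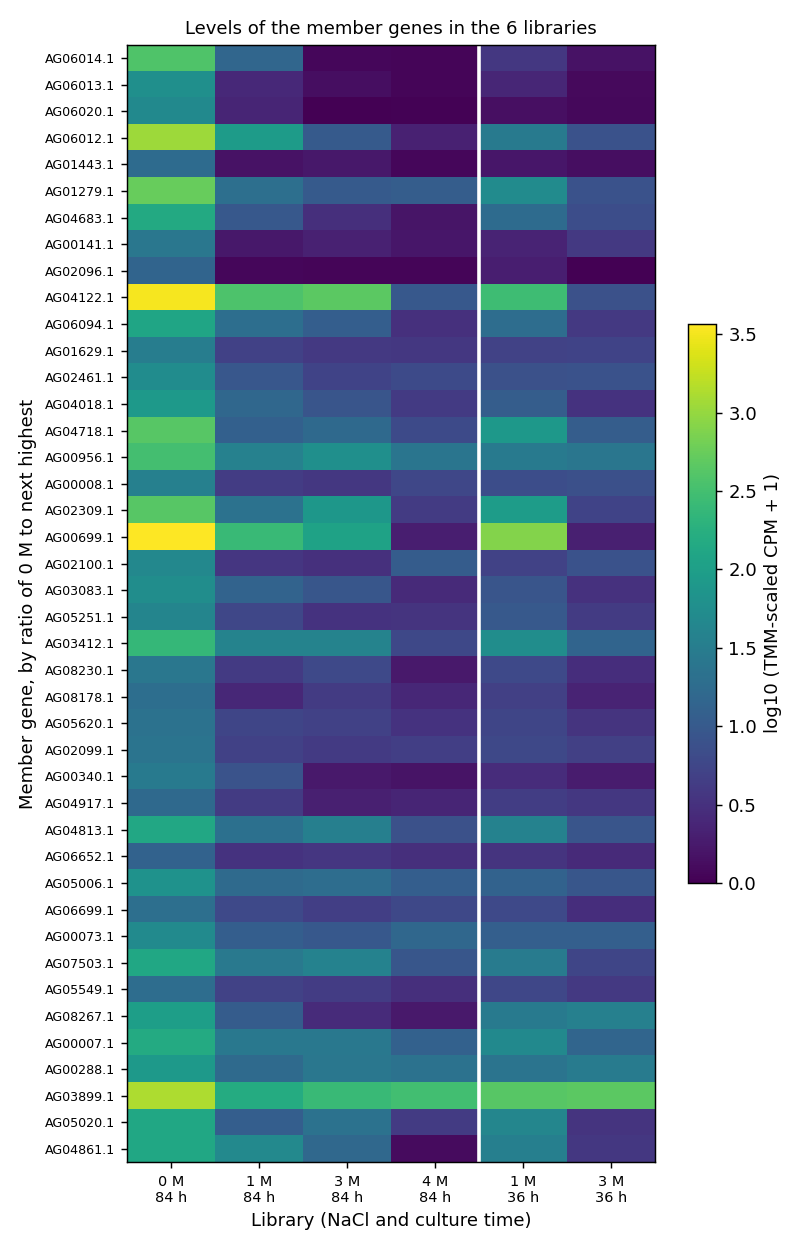
Level of each of the 42 member genes (rows, ordered by the ratio of their rule value in 0 M to the next highest library) in each library (columns, the 36 h libraries to the right of the white line), as log10 of TMM-scaled CPM plus 1. The 0 M column is the brightest in every row by construction, and the 4 M column at 84 h and the 3 M column at 36 h are the darkest for most rows.

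The margin over the next library varied widely within the set. The ratio of the rule value in 0 M to the next highest had a median of 4.45. It was at least 10 for 6 members, between 5 and 10 for 11, and between 3 and 5 for the remaining 25. Just inside the margin lay AG04861.1 (142 in 0 M, 47.3 in 1 M at 84 h, ratio 3.01) and AG05020.1 (140 in 0 M, 44.1 in 1 M at 36 h, ratio 3.17). Just outside it lay AG01987.1 (34.7 in 0 M, 11.8 in 1 M at 84 h, ratio 2.95) and AG05926.1 (32.8 in 0 M, 11.2 in 3 M at 36 h, ratio 2.93). Genes on both sides of the margin thus differ little. At the lower limit, AG06652.1 entered with a rule value of 13.8, and AG04376.1 stayed out with 9.73 although its ratio was 4.73.

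Counting error was small beside most of these ratios. The exact 95% interval of the ratio of 0 M to the next highest library lay wholly above 2-fold for all 42 members and wholly above 3-fold for 33. The rule chose the genes by this ratio from the same counts, and the intervals take no account of that. They describe counting error and lend no support to the set. Scaling mattered for a few: with TMM factors inside the rule 38 of the 42 still passed, and AG00288.1, AG03899.1, AG04861.1 and AG08267.1 did not. For these genes the ratio behind the interval was itself only 2.81 to 2.89, so the 33 reflects scaling as well as counting error.

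How many genes stand out in 0 M depends on the libraries set against it. Without the 1 M library at 84 h, 72 genes passed the rule, without 1 M at 36 h 62, without 3 M at 84 h 52, without 3 M at 36 h 47, and without 4 M at 84 h 44. With both 3 M libraries left out the number was 58, and with the 84 h libraries alone it was 89. All 42 members are contained in each of these larger sets by construction. Leaving out a library only takes a condition away from the rule. The same rule was also turned to the other libraries, with the same IDs left out. It then gave 121 genes for 1 M at 84 h, 36 for 1 M at 36 h, 31 for 3 M at 84 h, 17 for 4 M at 84 h and 3 for 3 M at 36 h. The 0 M library thus held the second largest such set, though by little (42 against 36), and every library had genes that stood out in it. These numbers depend on how alike the libraries are. The most alike pair, 3 M at 36 h and 4 M at 84 h (r = 0.949), were each set against the other.

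**Figure D2:**
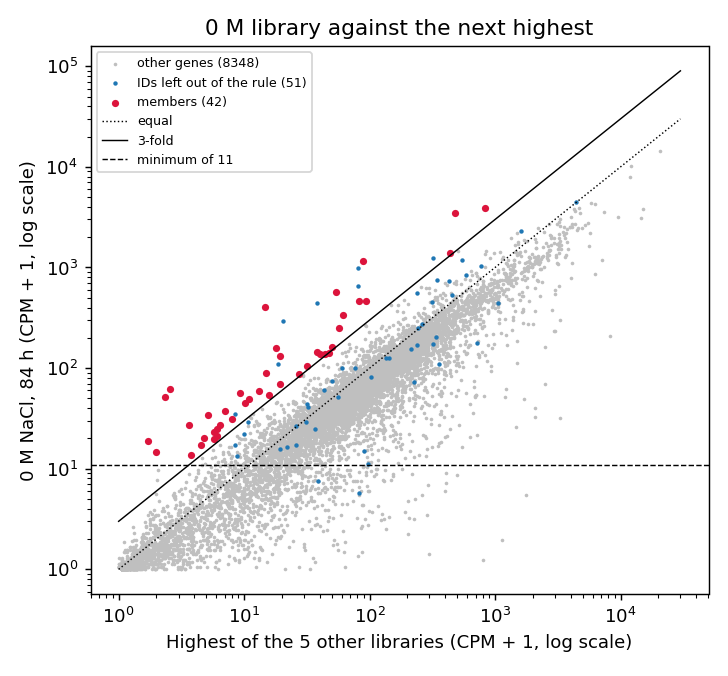
Rule value (CPM plus 1, log scales) in the 0 M library against the highest of the 5 other libraries, 1 point per gene. The 42 members (red) lie above the 3-fold line and the minimum of 11, and the 51 IDs left out of the rule are blue.

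Set against 0 M one library at a time, the distance was smallest for 1 M at 36 h and largest for 4 M at 84 h. Fold changes are given as log2 values after a prior count of 2 was added, and their intervals are exact 95% intervals of the plain ratio of counts. The rule used these contrasts, so the counts that follow describe the set. In 1 M at 36 h the median member was lower by a log2 fold change of -2.36, and 34 of 42 were down at least 4-fold (1.51% of all 6374 genes compared) and 6 were down at least 16-fold (0.173%). In 1 M at 84 h the median was -3.06, with 39 members at least 4-fold lower (2.83% of all genes) and 11 at least 16-fold lower (0.389%). The rule itself required a distance of this kind in every library, so nothing is read from its size.

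In 3 M at 84 h the median was -3.28, with 39 members at least 4-fold lower (3.22% of all genes) and 15 down at least 16-fold (0.562%). In 4 M at 84 h it was -4.78, with 39 (9.98%) and 25 (4.29%) members. In 3 M at 36 h it was -3.94, with 39 (8.23%) and 21 (2.93%) members. The median over all genes compared stayed between -0.071 and 0.108 in these comparisons. AG00288.1 was less than 4-fold lower in 4 of the 5 libraries, and in 1 M at 84 h it stood at 16.2 CPM against 81.4 in 0 M.

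The 4 genes with the largest ratios of rule values carry nearby ID numbers. In CPM without the added 1, AG01443.1 (24.9-fold) and AG02096.1 (13.1-fold) stood further above the next library than AG06012.1 (12.3-fold). AG06012.1, AG06013.1 and AG06014.1 form the longest run of consecutive members, and AG06020.1 follows 6 numbers later. AG06014.1 had 381.7 CPM in 0 M, 14.05 in 1 M, 0.155 in 3 M and 0.111 in 4 M at 84 h, and 2.84 in 1 M and 0.494 in 3 M at 36 h. It went from 6604 counts in 0 M to 3 in 3 M and 2 in 4 M at 84 h. These are at the detection limit, since 3 counts correspond to 0.155 to 0.185 CPM depending on the library.

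AG06013.1 had 58.4 CPM in 0 M, 1.57 in 1 M, 0.362 in 3 M and 0.111 in 4 M at 84 h, and 1.39 in 1 M and 0.247 in 3 M at 36 h. AG06020.1 had 47.9 CPM in 0 M, 1.35 in 1 M and 0.0557 in 4 M at 84 h, and 0.405 in 1 M and 0.185 in 3 M at 36 h. In 3 M at 84 h it had no read, so 0 M stood at least 309-fold higher there (floor of 3 counts per library). Both genes were thus close to silent in all 5 libraries with added salt. They differ in this from AG06012.1, which had 1103 CPM in 0 M, 89.7 in 1 M, 9.32 in 3 M and 1.11 in 4 M at 84 h, and 27.9 in 1 M and 6.79 in 3 M at 36 h.

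At 84 h the levels of AG06012.1 went down at every salt step, by log2 fold changes of -3.62 (interval -3.69 to -3.55) from 0 M to 1 M, -3.25 (-3.50 to -3.04) from 1 M to 3 M, and -2.95 (-3.81 to -2.40) from 3 M to 4 M. For AG06014.1 the first steps were -4.75 (-4.95 to -4.58) and -5.75 (-8.79 to -4.94), after which it was at the detection limit. In all 4 genes 1 M at 84 h was the next highest library. The IDs on either side of the run did not share the pattern. AG06011.1 had 11.4 CPM in 0 M and between 6.52 and 18.8 elsewhere. AG06015.1 had 1.79 CPM in 0 M and between 1.10 and 3.82 elsewhere. AG06021.1, beside AG06020.1, is not a member but was highest in 0 M and lower at each salt step at 84 h, with 38.3 CPM in 0 M, 26.5 in 1 M, 4.19 in 3 M and 0.835 in 4 M. Between the run and AG06020.1, AG06016.1 was lower in 0 M (5.78 CPM) than in 1 M at 84 h (18.38 CPM).

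**Figure D3:**
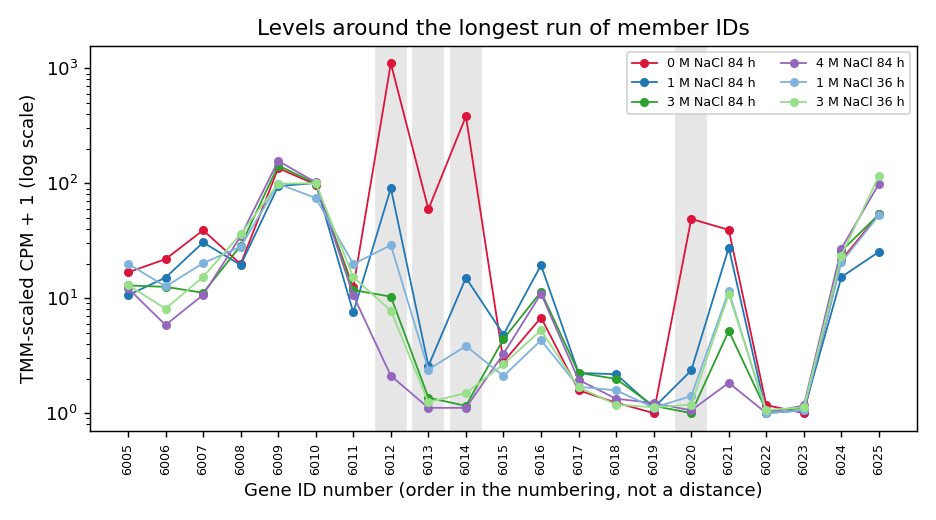
Level (TMM-scaled CPM plus 1, log scale) of consecutive gene IDs around the longest run of members, 1 line per library, with members shaded. The 0 M line rises to 1103, 58.4 and 382 CPM at AG06012.1, AG06013.1 and AG06014.1 and to 47.9 CPM at AG06020.1, and lies among the other libraries at most IDs between and around them.

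Among the members with the most counts in 0 M, AG00699.1 took 0.389% of the library, AG04122.1 0.345% and AG03899.1 0.139%. AG00699.1 had 3677 CPM in 0 M, 257 in 1 M, 112 in 3 M and 1.00 in 4 M at 84 h, and 811 in 1 M and 1.05 in 3 M at 36 h. By rule values it was the member whose 5 other libraries lay furthest apart, with the highest 424 times the lowest. Its lowest levels were in the 2 libraries that stood apart, at 17 counts (3 M, 36 h) and 18 counts (4 M, 84 h).

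AG04122.1 had 3260 CPM in 0 M, 368 in 1 M, 458 in 3 M and 8.52 in 4 M at 84 h, and 290 in 1 M and 6.73 in 3 M at 36 h. It too was lowest in both libraries that stood apart, there near 10 CPM, and between 290 and 458 CPM in the other 3 with added salt. AG03899.1 had 1319 CPM in 0 M, 153 in 1 M, 262 in 3 M and 310 in 4 M at 84 h, and 430 in 1 M and 465 in 3 M at 36 h. Unlike the other pair, beyond 1 M its level at 84 h was higher with each salt step, by 0.77 (interval 0.71 to 0.84) and 0.24 (0.19 to 0.30) on the log2 scale. AG03899.1 passed the rule with a ratio of 3.18 by file totals, and with TMM factors it stood 2.83-fold above the next library.

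The rule did not fix how the members differ among the libraries with added salt, but it bears on it. It sets a ceiling for each of these, so a gene near its 0 M level in any of them could not be a member. Levels in 0 M, on which genes were chosen, correlated less with 3 M at 36 h and 4 M at 84 h. Pearson r was 0.767 and 0.712 there, against 0.851 to 0.905 for the others. How far the choice itself lowers the members in those libraries was not tested. At 36 h, 3 M was compared with 1 M. Of the 21 members at 10 CPM or more in either library, 13 were down at least 4-fold in 3 M (8.82% of all 6339 genes compared) and 0 at least 4-fold higher (2.05%). The median over all 42 members was -1.40, against 0.059 over all genes compared, and 33 members were below 0. Lower members included AG00699.1 (-9.44, interval -10.37 to -8.91), AG04122.1 (-5.41, -5.72 to -5.16), AG02309.1 (-4.39, -4.80 to -4.08), AG05020.1 (-4.04, -4.60 to -3.64) and AG04861.1 (-3.53, -4.06 to -3.15). AG08267.1 (34.3 CPM in 3 M, 28.5 in 1 M) and AG03899.1 differed little between the 2 libraries. Of the 2 libraries, all of the 13 but AG03412.1 and AG04718.1 reached 10 CPM only in 1 M, where they were higher. This count thus does not stand for all members. Scaling by file totals moved the median of all genes by -0.17 here.

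At 84 h, fewer members differed between 3 M and 1 M, although the difference between the times was not tested. Of 21 members compared, 2 were down at least 4-fold in 3 M (4.6% of all 6415 genes) and 0 at least 4-fold higher (2.56%). The 2 were AG06014.1 and AG06012.1. Both reached 10 CPM only in 1 M of these libraries, where they were higher, so this count does not stand for all members. The median over all 42 members was -0.32, with 26 below 0 and 16 above. Furthest up was AG02309.1, with 75.6 CPM in 3 M and 21.2 in 1 M (1.83, interval 1.67 to 2.003). Counted at any level, 5 members were at least 4-fold lower, the other 3 being AG00340.1, AG06020.1 and AG08267.1, all under 10 CPM in both libraries. Between 1 M and 3 M at 84 h the members thus lay on both sides of 0.

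From 3 M to 4 M at 84 h, 9 of the 17 members compared were down at least 4-fold in 4 M (9.08% of all 6308 genes) and 0 at least 4-fold higher (2.33%). The median over all 42 was -0.88, against 0.103 over all genes compared, with 30 members below 0. This median and the members on either side of 0 include 3 members at 3 counts or fewer in both libraries. They are AG06014.1 (below 0), AG02096.1 and AG06020.1 (both above 0), and their single folds are not read. Without them the median was -1.03. Of the 2 libraries, all 9 reached 10 CPM only in 3 M, where they were higher, so this count does not stand for all members. The largest differences were those of AG00699.1 (-6.66, interval -7.56 to -6.14), AG04122.1 (-5.73, -5.99 to -5.52), AG04861.1 (-5.28, -7.38 to -4.50) and AG02309.1 (-4.55, -5.01 to -4.22). All 4 were also among the 13 lower in 3 M at 36 h. Of the 12 members above 0, AG02100.1 alone was up at least 4-fold, from 2.12 to 9.91 CPM (2.17, interval 1.73 to 2.75), just under the minimum of 10 CPM.

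**Figure D4:**
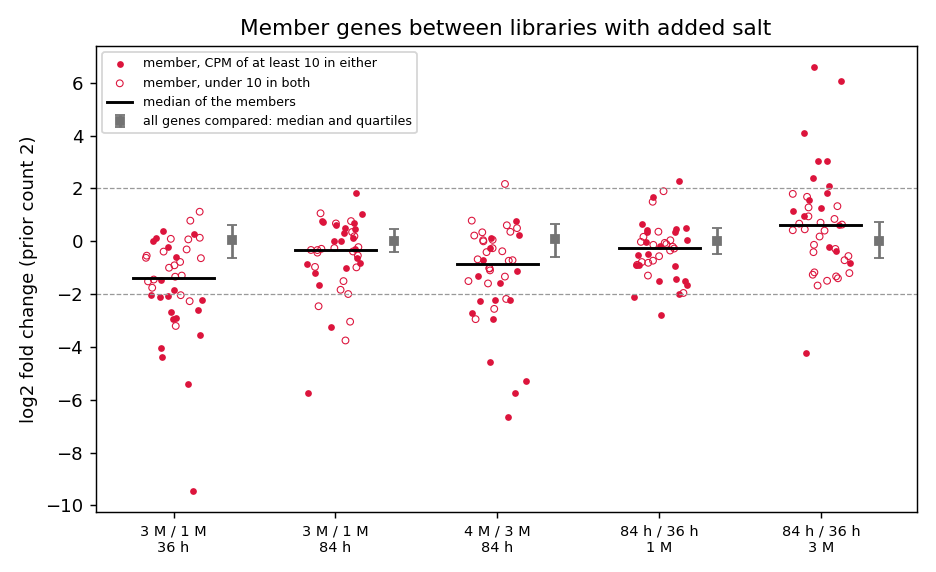
Log2 fold change (prior count 2) of each member between libraries with added salt, 1 point per member (filled where it reached 10 CPM in either library, open where it did not), with the members' median as a black bar and the median and quartiles of all genes compared as a grey square with whiskers. Dashed lines mark 4-fold. The members' medians lie at -1.40, -0.32, -0.88, -0.24 and 0.62 from left to right, against medians of all genes between 0.005 and 0.103.

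Culture time was compared within each salt concentration sampled at both times. In 1 M, 3 of 23 members compared were down at least 4-fold at the later time (2.88% of all 6391 genes) and 1 at least 4-fold higher (3.83%). The lower ones were AG04718.1 (79.7 CPM at 36 h, 11.5 at 84 h), AG02309.1 (91.7 and 21.2) and AG05020.1 (42.4 and 10.5). The higher one was AG06014.1 (2.84 and 14.05 CPM, 2.26, interval 1.86 to 2.78). The median over all 42 members was -0.24, with 28 below 0.

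In 3 M, 7 of 17 members compared were at least 4-fold higher at 84 h (8.35% of all 6320 genes) and 1 at least 4-fold lower (3.54%). The median over all 42 members was 0.62, with 26 above 0, against 0.005 over all genes compared. Of the 2 libraries, all 7 reached 10 CPM only in that of 84 h, where they were higher. They were AG00699.1 (6.59, interval 6.05 to 7.52), AG04122.1 (6.07, 5.82 to 6.38), AG02309.1, AG05020.1, AG07503.1, AG04861.1 and AG04813.1. These 7 were all among the 13 that were lower in 3 M than in 1 M at 36 h, a comparison that shares the 3 M library at 36 h with this one. AG08267.1 went the other way, from 34.3 CPM at 36 h to 1.71 at 84 h (-4.24, interval -4.88 to -3.82). Both libraries of this comparison are among those in doubt, so it has no value without them. Scaling by file totals moved the median of all genes by 0.22.

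**Figure D5:**
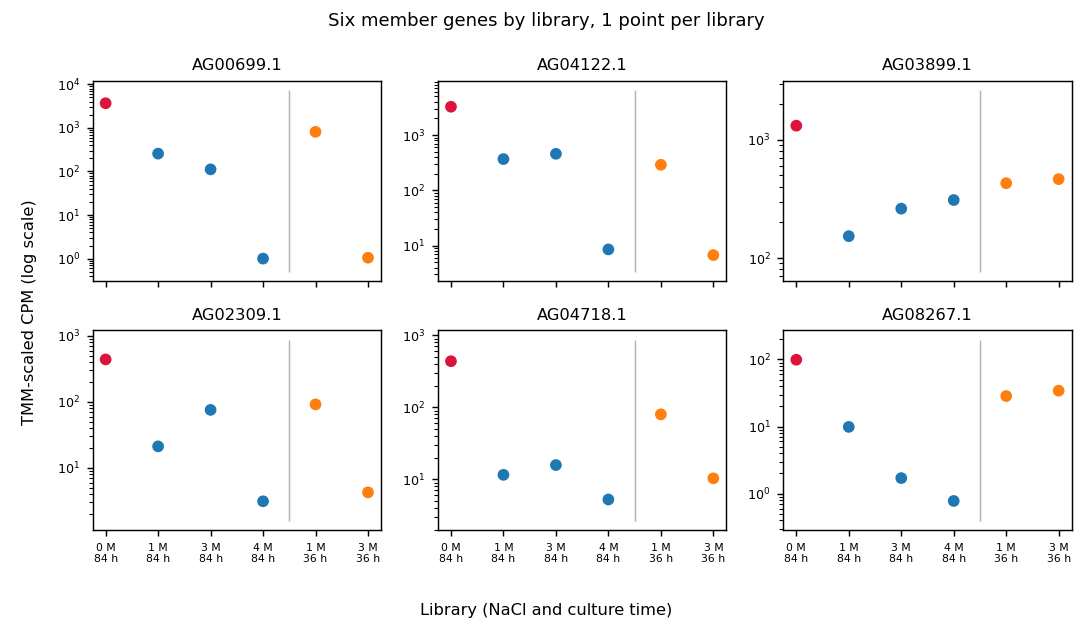
Level (TMM-scaled CPM, log scales that differ between panels) of 6 members by library, 1 point per library, with 0 M in red, the other 84 h libraries in blue and the 36 h libraries in orange. AG00699.1, AG04122.1 and AG02309.1 are lowest in 4 M at 84 h and 3 M at 36 h, AG03899.1 is lowest in 1 M at 84 h, and AG08267.1 is higher in both 36 h libraries than in 1 M, 3 M and 4 M at 84 h.

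The next highest library after 0 M was 1 M at 36 h for 16 members, 1 M at 84 h for 11, 3 M at 84 h for 7, 3 M at 36 h for 6 and 4 M at 84 h for 2. With file totals in place of TMM factors these numbers were 21, 9, 7, 3 and 2. The next highest library was apart from the following one by more than the counting interval for 10, 7, 3, 4 and 2 members. For the 16 members, 0 M stood 3.10-fold to 13.1-fold above 1 M at 36 h, with a median of 4.55-fold. The library with the lowest level was 4 M at 84 h for 22 members and 3 M at 36 h for 10. Shares over all genes were not computed for the next highest or the lowest library. These counts describe the members and are not read as particular to them. Libraries 4 M at 84 h and 3 M at 36 h both lay below the other 3 with added salt for 22 members (52.4%). This held for 26.7% of the 6745 genes that reached 10 CPM in any library. That background includes genes highest with added salt, which the rule keeps out, so this contrast is in part set by the choice. Of the 2 members next highest in 4 M, AG00073.1 had 14.7 CPM there against 50.5 in 0 M and 8.59 to 11.2 in the other 4.

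At 84 h the most frequent order of the libraries with added salt was 1 M above 3 M above 4 M, in 15 members (35.7%, against 24.8% of all genes at 10 CPM in any library). The order 3 M, 1 M, 4 M followed in 13 (31.0%, against 13.6%). The order 1 M, 4 M, 3 M was found in 8 (19.0%, against 9.31%). The order 4 M, 1 M, 3 M was found in 3 (7.14%, against 14.6%). The order 3 M, 4 M, 1 M was found in 2 (4.76%, against 8.5%, the lowest share among all genes too). The order 4 M, 3 M, 1 M was found in 1 (2.38%), whereas it was the most frequent among all genes (29.1%). In all, 28 members (66.7%) were lowest in 4 M, against 38.4% of all genes. The shares of all genes are a background and not a test. Genes highest with added salt count in this background but could not be members, so every contrast with it is in part set by the rule. With 3 M set aside, 1 M was above 4 M in 36 members (85.7%), against 47.8% of all genes. Neighbouring levels lay apart by more than the counting interval at both steps in 8 members with the first order, 8 with the second and 0 with the third.

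A part of the set was low in every library with added salt. In 19 members no other library reached 10 CPM, in 4 all 5 did (AG00007.1, AG00288.1, AG00956.1 and AG03899.1), and in the other 19 some did. In 10 members the rule values of the 5 other libraries lay within 2-fold of each other. The added 1 narrows the spread of low levels, so some of the 10 differ by more than 2-fold in CPM. AG01443.1 had the largest ratio of them, with 16.8 CPM in 0 M and 0.167 to 0.673 in the others, which are 3 to 13 counts. It was followed by AG01629.1, with 31.4 CPM in 0 M and 2.84 to 4.26 in the others, and AG02461.1, with 52.4 CPM and 4.19 to 8.43. The others of this kind were AG00008.1, AG00073.1, AG00288.1, AG02099.1, AG05549.1, AG05620.1 and AG06652.1.

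At the opposite end, the rule values of the 5 other libraries lay at least 10-fold apart in 10 members. These were AG00699.1, AG02309.1, AG04122.1, AG04683.1, AG04718.1, AG04861.1, AG05020.1, AG06012.1, AG06014.1 and AG08267.1. In CPM without the added 1 further members were as far apart, such as AG03412.1, with 4.90 to 55.3 CPM, and AG00340.1, with 0.557 to 7.19 CPM. AG04718.1 had 436 CPM in 0 M, 11.5 in 1 M, 15.7 in 3 M and 5.23 in 4 M at 84 h, and 79.7 in 1 M and 10.3 in 3 M at 36 h. AG08267.1 had 99.0 CPM in 0 M, 9.89 in 1 M, 1.71 in 3 M and 0.779 in 4 M at 84 h, and 28.5 in 1 M and 34.3 in 3 M at 36 h. For both, 1 M at 36 h was well above every library with added salt at 84 h. Neither time nor salt went 1 way throughout. In 3 M, AG04718.1 was higher at 84 h (15.7 CPM) than at 36 h (10.3 CPM). At 36 h, AG08267.1 was higher in 3 M (34.3 CPM) than in 1 M (28.5 CPM).

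The member whose log2 fold changes against 0 M were closest to the set's medians in the 5 comparisons combined was AG08230.1, although its levels were mostly lower than the median levels. It had 25.1 CPM in 0 M, 2.98 in 1 M, 5.13 in 3 M and 0.779 in 4 M at 84 h, and 5.04 in 1 M and 1.97 in 3 M at 36 h. Its levels with added salt were thus a few CPM, and lowest in the libraries that stood apart. AG01279.1 showed a wider margin, with 540.0 CPM in 0 M, 19.0 in 1 M, 9.27 in 3 M and 10.2 in 4 M at 84 h, and 51.9 in 1 M and 6.91 in 3 M at 36 h. AG00956.1 had 319 CPM in 0 M and between 23.4 and 57.8 in the others. AG02096.1 had 12.9 CPM in 0 M, no read in 3 M at 36 h and at most 0.984 CPM elsewhere, so 0 M stood at least 69.6-fold above 3 M at 36 h.

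Most members had no member beside them in the numbering. ID numbers are the sole hint of position in the files, and whether they follow the chromosomes is not stated. In 3 runs, 7 members (16.7%) had a member as the next or previous ID. Members make up 0.498% of all IDs, but that is a share for a single ID. The 7 were counted over the IDs on both sides, so the percentages are not like measures. The share of all IDs with a member on either side was not computed. Beside the run of 3, the runs were AG00007.1 with AG00008.1 and AG02099.1 with AG02100.1. AG00007.1 had 152 CPM in 0 M and 11.8 to 48.0 in the others, AG00008.1 had 34.6 CPM and 2.74 to 6.48. AG02099.1 had 22.4 CPM in 0 M and 3.05 to 4.98 in the others, AG02100.1 had 45.8 CPM and 2.12 to 9.91. With both 3 M libraries left out of the rule, 9 genes lay in such runs. In filamentous fungi, genes of one biosynthetic pathway often lie side by side. No function can be given to these IDs.

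The IDs next to members were also looked at. They were taken by their number, but IDs that passed the rule by their own counts are members and are not among them. Of 74 such IDs that are not members, 51 reached 10 CPM in a library. Of these, 12 (23.5%) were highest in 0 M, against 14.9% of all 6652 non-members at this level outside the left-out stretches, the 51 included. At least 2-fold above every other library were 3 (5.88%, against 0.932%), namely AG00957.1, AG02098.1 and AG05019.1. AG05019.1, beside AG05020.1, had 77.2 CPM in 0 M and 14.8 to 28.6 in the others. AG02098.1, beside AG02099.1, had 23.9 CPM and 3.20 to 10.5, and AG00957.1, beside AG00956.1, had 25.9 CPM and 0.334 to 11.6. These are 3 genes, and whether neighbours share reads was not tested.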

How the data were processed

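RNA of 6 libraries, 1 per condition, was sequenced. The authors deposited unnormalized read counts by gene ID in a separate file for each library. TopHat2 2.0.8b and HTSeq 0.5.4p2 are named per the submitters' processing notes. Not given in the sources used here are the genome build, annotation, strand setting and filters, so paralogs, overlapping genes and antisense partners cannot be recognised and their counts are uncertain. The smallest deposited count is 1, and genes missing from a file were set to 0. No line lacks a gene ID.

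Members were found on CPM by file total. All later levels and fold changes used TMM factors over the 6 libraries (edgeR 4.0.16, R 4.3.3), with a prior count of 2. A gene entered a comparison with 10 CPM or more in either library, and size was judged at 4-fold. The 95% intervals are exact (SciPy 1.17.1) and cover counting error only, since reads that carry no molecular identifier may be copies of one molecule. Named are the members with the largest ratios and shares of counts, those furthest apart in each comparison, those at the margin, the longest run with its flanks, and the most typical member. Other members were named after their values were seen. The members, lists and alternatives were chosen with earlier results of these data known. The marker and pathway lists drawn up (conidiation, sexual development, osmostress, glycerol, nitrogen and carbon metabolism) could not be matched to IDs, so they gave no result and the cell types in the cultures were not checked. DESeq2 1.42.0 size factors, file totals, other priors, minima and margins were tried as alternatives.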

Additional observations from a re-analysis of the deposited data

Results flagged for a closer look

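In 3 members the same contrast went in opposite directions at the other culture time or salt concentration, by at least 2-fold each way, with 10 CPM or more in either library and counting intervals clear of 0. Other members did so by less. With 1 library per condition these differences were not tested. In 3 M against 1 M NaCl, AG02309.1 had a log2 fold change of -4.39 at 36 h and 1.83 at 84 h. AG05020.1 had -4.04 at 36 h and 1.01 at 84 h. In 84 h against 36 h, AG00699.1 had -1.66 in 1 M and 6.59 in 3 M. The same contrast gave AG02309.1 -2.11 in 1 M and 4.12 in 3 M, and AG05020.1 -2.0002 in 1 M and 3.05 in 3 M. All of these rest on the 3 M library at 36 h, where the 3 genes stood at 1.05 to 4.26 CPM. Whether its label is right cannot be told apart from an effect of salt or time.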

How the results depend on the processing

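The number of members, 42, was 106 with a 2-fold margin, 27 with a 4-fold margin, 26 with a minimum of 51, 89 with the 84 h libraries alone (chosen after seeing the data), and 44 to 72 with 1 of the other libraries left out, the 72 being without 1 M at 84 h. The share of counts in 0 M, 1.44%, was 1.19% with a 4-fold margin and 1.27% with TMM factors in the rule. For 3 M against 1 M at 84 h, 5 members instead of 2 were at least 4-fold lower with a minimum of 1 CPM and with none, and for 4 M against 3 M, 1 instead of 0 was at least 4-fold higher under both. Of 16 members with 1 M at 36 h next highest, 10 had it apart from the following library by more than the counting interval, and of 15 with the order 1 M, 3 M, 4 M, 8 had both steps apart. Members in runs numbered 12 instead of 7 with the left-out stretches kept in, and 18 with a 2-fold margin. For the other counts of 4-fold members no alternative moved the value by over 1.5 times, and no median changed sign under file totals, DESeq2 size factors or a prior count of 0.5. No paired analysis was possible because each group holds 1 library. Members under 10 CPM rest on few counts.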
